A study of Mus musculus with 14 samples.

Results

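Tumours treated with MYCi975 and TMP195 together were compared with tumours treated with TMP195 alone, over all genes measured above background. MYCi975 blocks the transcription factor MYC as a small molecule, and TMP195 blocks the class IIa histone deacetylases. The comparison used 6 of the 14 libraries, 3 of the combination (called Combo here) and 3 of TMP195, and 13711 of the 21152 genes in the table. A gene was included when its mean over the 14 libraries lay more than 1 unit above the lowest value of the table, 4.047. All tumours grew in mice from LLC1 cells, a mouse line of Lewis lung carcinoma. The Combo group received both compounds, the TMP195 group 50 mg/kg of TMP195, the MYCi975 group (4 libraries) 50 mg/kg of MYCi975 and the vehicle group (4 libraries) DMSO. Treatment ran for 16 days in every group. The sources used here give no doses for the combination and no strain, age or sex of the mice. In the labels the RNA comes from material enriched for tumour cells, whereas the design text speaks of a suspension of the whole tumour. No label ties a library to an animal, and p-values therefore reflect how much the libraries of a group vary, some of which may be technical.

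MYC pairs with MAX on E-box DNA and raises the transcription of genes for ribosome assembly, nucleotide supply and cell division, while the MXD proteins and MXI1 compete with MYC for MAX. The class IIa deacetylases HDAC4, HDAC5, HDAC7 and HDAC9 have little catalytic activity of their own and hold MEF2 transcription factors in a repressed state. In tumours both routes are known to act in carcinoma cells and in the immune cells around them. The contrast of Combo with TMP195 asks what MYCi975 adds in tumours that already receive TMP195. Expression values are normalised log2 values, and every difference below is Combo minus TMP195 on that scale, with its standard error after ± (3 libraries a group), unless another contrast is named.

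The 6 libraries were not equally alike. The first principal component of the 6 held 37.1% of their variance and set Combo replicate 1 (-25.9) against TMP195 replicate 3 (37.6), with the other 4 between -8.57 and 0.928. Ptprc, the gene of the leukocyte surface protein CD45, had values of 9.65, 10.35 and 10.12 in Combo libraries, against 10.46, 10.62 and 11.45 in TMP195 libraries. The same pair of libraries thus held its lowest and its highest value. For many lists described below the median is also given without this pair. The number of genes at the floor was 2158, 892 and 1539 in Combo libraries, against 1056, 2430 and 1483 in TMP195 libraries, and the depth behind these values is unknown. The Y-linked gene Eif2s3y was above the floor in Combo replicate 1 and TMP195 replicate 1 and at the floor in the other 4. Of 9 lung epithelial and carcinoma markers, Krt8, Krt18, Vim, Cdh1 and Cdh2 were measured above background. The other members, among them Epcam and Krt19, were not.

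No gene passed the test. The smallest adjusted p of limma with Benjamini-Hochberg adjustment was 0.998, which makes 0 of 13711 genes called. An unadjusted p under 0.05 was found for 603 genes, against 686 for 5% of the genes tested. Of these, 228 (1.66%) were higher and 375 (2.74%) lower in Combo. The median difference over all genes was 0.0056, with 7005 genes (51.1%) higher and 6706 (48.9%) lower. Differences between the 5th and the 95th percentile ran from -0.49 to 0.34. The median standard error was 0.20 and the unadjusted 95% interval of the median gene reached 0.42 to either side. Changes of a typical gene much under that size were not detectable here, and the adjusted test asks for larger ones. Of the 48 genes that differed by over 1 in either direction, none was called. A gene is called separated below when all 3 values of one group lie beyond all 3 of the other. Over all genes 751 (5.48%) were separated with Combo higher and 872 (6.36%) with Combo lower.

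The genes with the smallest unadjusted p in each direction give the clearest single differences, and none passed adjustment. Pik3r3, a regulatory subunit of phosphoinositide 3-kinase, had 6.31, 5.79 and 5.68 in Combo libraries, against 5.12, 4.94 and 5.09 in TMP195 libraries. The difference was 0.88 ± 0.19 (SE), with an adjusted p of 0.998 in limma. Every Combo value lay above every TMP195 value. Errfi1, a feedback inhibitor of the epidermal growth factor receptor, had 10.34, 10.41 and 10.73 in Combo libraries, against 9.94, 9.79 and 10.04 in TMP195 libraries. Igf2, the growth factor insulin-like growth factor 2, had 6.08, 6.13 and 5.41 in Combo libraries, against 4.73, 4.87 and 5.04 in TMP195 libraries, close to the floor. Both genes were separated, by 0.57 ± 0.14 for Errfi1 and 0.99 ± 0.25 for Igf2. The other 9 genes of the 12 taken by rule on the higher side had differences of 0.52 to 0.95. They included Efna5, an ephrin ligand, at 0.61, Ube2s, a ubiquitin-conjugating enzyme of the anaphase-promoting complex, at 0.52, Med24, a Mediator subunit, at 0.95, and the zinc finger genes Zfp704 at 0.75 and Zbtb48 at 0.76.

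On the lower side, several of the 12 genes are known from immune or myeloid cells. Tnfrsf9, the T cell co-stimulatory receptor 4-1BB, had 6.41, 7.24 and 7.10 in Combo libraries, against 7.62, 7.65 and 7.92 in TMP195 libraries. Fabp5, a fatty acid-binding protein, had 7.93, 8.41 and 8.37 in Combo libraries, against 9.19, 9.10 and 9.78 in TMP195 libraries. Abcg1, a cholesterol exporter of macrophages, had 6.24, 6.47 and 6.63 in Combo libraries, against 7.14, 7.60 and 8.11 in TMP195 libraries. All 3 genes were separated, and the differences were -0.81 ± 0.20, -1.12 ± 0.27 and -1.17 ± 0.33 in that order. Nfatc1, a calcium-regulated transcription factor of lymphocytes and osteoclasts, differed by -0.79 and Tfec, a transcription factor of the macrophage lineage, by -0.79. Pla2g4a, the cytosolic phospholipase that frees arachidonic acid, differed by -0.69, the drug exporter Abcb1a by -0.77 and Mreg, a melanosome and phagosome transport protein, by -0.69. In Combo libraries Mreg lay between 4.94 and 5.05, close to the floor. The remaining 4, Adamts7, Galnt6, Gngt2 and Ank2, differed by -0.70, -0.75, -0.91 and -0.70.

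**Figure D1:**
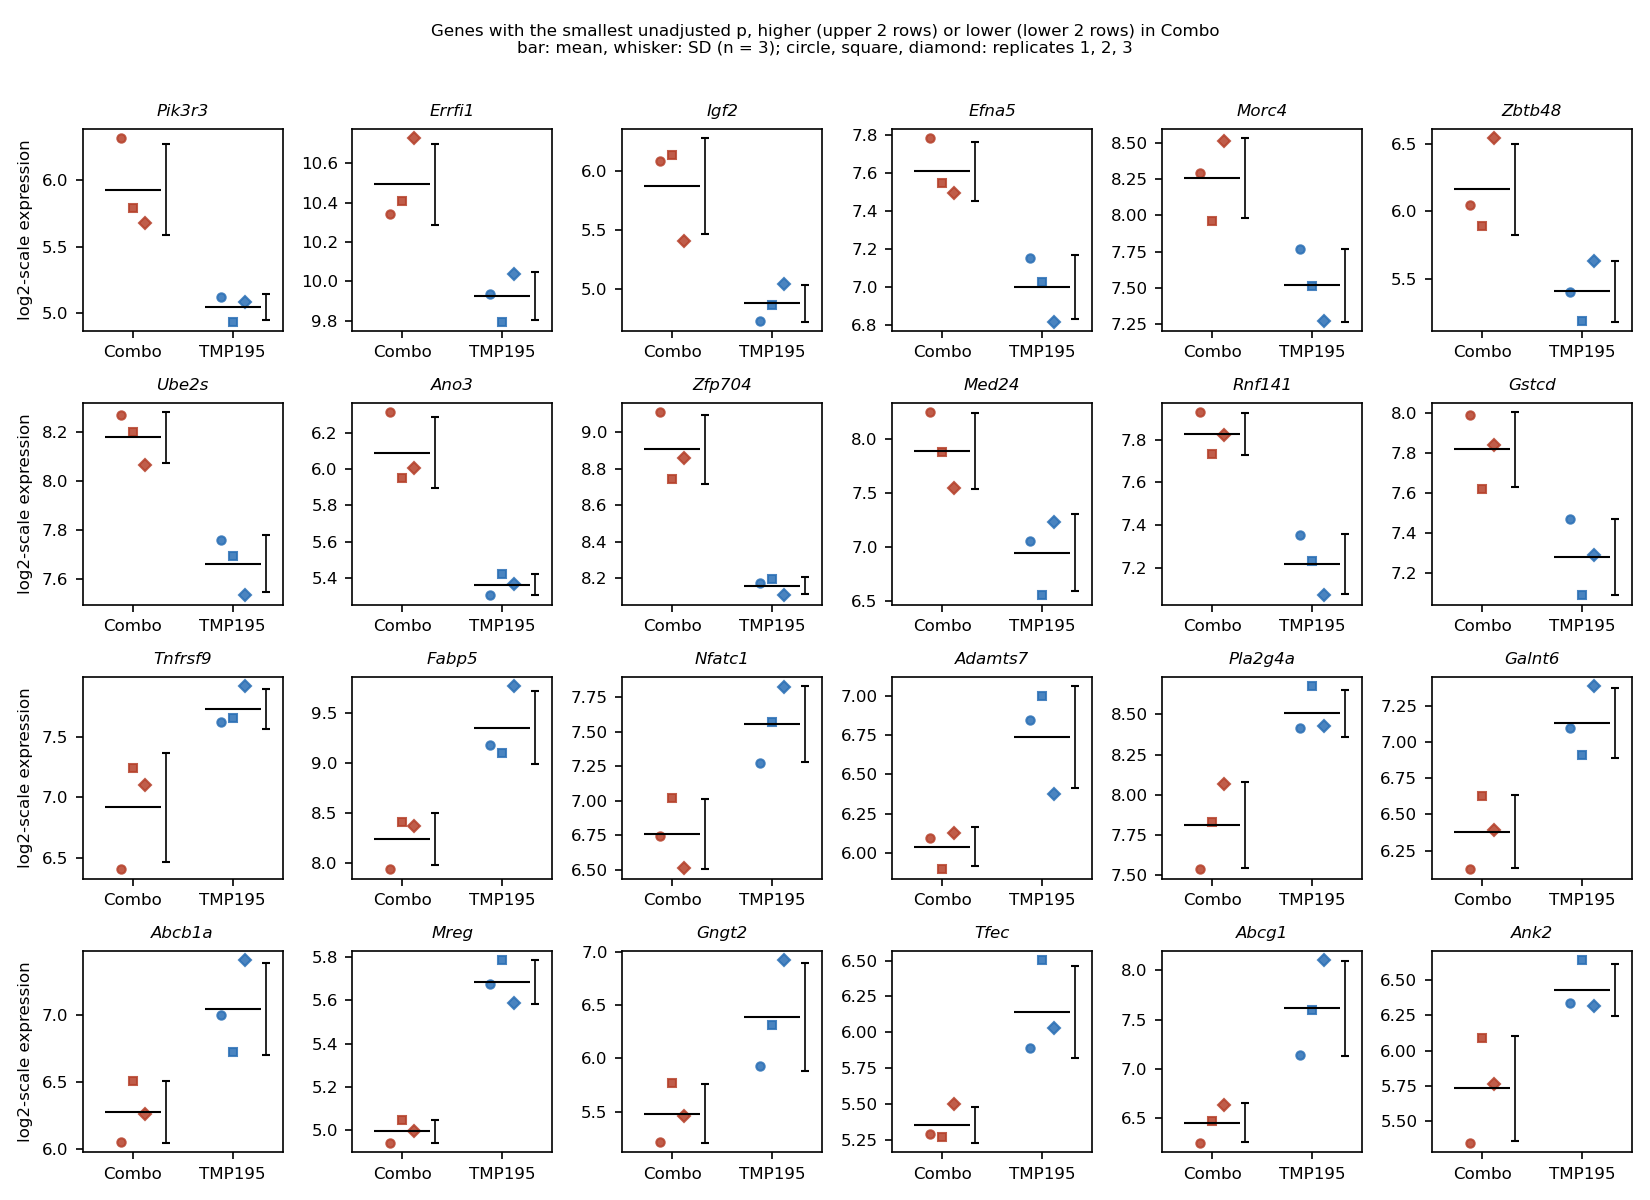
Log2-scale expression (y axes differ) of the 24 genes with the smallest unadjusted p, 12 in each direction, in 3 Combo and 3 TMP195 libraries. Points are libraries, bars means and whiskers SD (n = 3 each), and in all 24 panels the Combo points lie wholly above or wholly below the TMP195 points; the genes were picked for small p, so this separation follows from the choice.

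The transcripts of the drug targets overlapped between the groups. Myc had 8.98, 9.11 and 9.11 in Combo libraries, against values between 8.96 and 9.15 in TMP195 libraries, a difference of 0.03 with a 95% interval of -0.32 to 0.39. Max, the partner of MYC, differed by 0.13 ± 0.16. MYCi975 acts on the MYC protein, which these data do not measure. Of the antagonists, Mxi1 and Mxd1 were both separated with Combo lower, while Mxd3 and Mxd4, both at 0.14, overlapped between the groups. Mnt and Mga, also of the MYC network, were at -0.08 and 0.22 and overlapped too. Mxi1 had 9.45, 9.65 and 10.07 in Combo libraries, against 10.13, 10.17 and 10.18 in TMP195 libraries, a difference of -0.43 ± 0.17. Mxd1 had 9.02, 9.39 and 9.35 in Combo libraries, against 9.77, 10.14 and 9.89 in TMP195 libraries, a difference of -0.68 ± 0.39. Mxi1 is also one of the hypoxia response genes described below. Of the 10 tested genes of the MYC network 5 were higher and 5 lower, with a median of -0.02. Among them 3, Mxi1, Mxd1 and Mlxip, were separated, all with Combo lower, against 6.36% over all genes. The median was 0.04 without Combo replicate 1 and TMP195 replicate 3. It was 0.09 with the Ptprc value of each library as a covariate. Mycl lay between 4.27 and 4.36 in Combo libraries and between 4.05 and 4.60 in TMP195 libraries, under the threshold for testing.

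Among the class IIa deacetylases, Hdac5 had the largest difference, with 7.91, 8.04 and 8.17 in Combo libraries, against 8.63, 8.04 and 8.42 in TMP195 libraries (-0.32 ± 0.15). Hdac4 differed by -0.29 ± 0.19, Hdac7 by 0.04 ± 0.13 and Hdac9 by 0.12 ± 0.24, and the groups overlapped in all 4 genes. Across the 7 tested deacetylase and MEF2 factor genes, 2 were higher and 5 lower, with a median of -0.11. That median was -0.21 when TMP195 replicate 2 was left out and -0.0063 when TMP195 replicate 3 was, and with the Ptprc value of each library as a covariate it was 0.09, with 4 of 7 higher. Of the 11 tested MEF2-responsive genes 8 were higher, none of them separated, with a median of 0.10, and with that covariate the median was 0.40, with 9 of 11 higher. The covariate was fitted over all 14 libraries. Among them MYCi975 replicate 2 had the highest Ptprc value, 12.07, and the highest score of the MEF2-responsive list, 0.57. How far that library sets the medians with the covariate was not tested.

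Genes known to respond to MYC were slightly higher in Combo. Of 60 such genes, most of them for ribosome assembly, 47 were higher and 13 lower, against 51.1% higher over all genes, and the median was 0.08, against 0.0056 over all genes. Srm, which makes the polyamine spermidine, had 7.20, 7.13 and 7.10 in Combo libraries, against 6.76, 6.84 and 6.65 in TMP195 libraries (0.39 ± 0.20), and it was one of 4 separated members of 60, near the 5.48% over all genes. Ppan and Nop56, both of ribosome assembly, and Polr1b, a subunit of RNA polymerase I, differed by 0.32, 0.29 and 0.36 and overlapped between the groups. No member reached an unadjusted p under 0.05. Leaving out any 1 library kept the median between 0.04 and 0.12, and it was 0.14 without Combo replicate 1 and TMP195 replicate 3, with 49 of 60 higher. With the Ptprc value of each library as a covariate it was 0.07, with 36 of 60 higher.

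Cell cycle genes leaned the same way. Of 46 genes 40 were higher and 6 lower, with a median of 0.14, and 10 were separated, all with Combo higher. Over all genes 51.1% were higher and 5.48% separated with Combo higher. Mcm7 and Mcm2, subunits of the replicative helicase, were both separated. Mcm7 had 9.50, 9.34 and 9.48 in Combo libraries, against 9.25, 8.85 and 9.08 in TMP195 libraries (0.38 ± 0.14). Mcm2 had 9.32, 9.06 and 9.26 in Combo libraries, against 9.02, 8.92 and 8.31 in TMP195 libraries (0.47 ± 0.20). Rrm2, a subunit of ribonucleotide reductase, differed by 0.43 ± 0.17 with overlap, and Birc5, the chromosomal passenger protein survivin, by 0.26 ± 0.14 without overlap. The lists share 3 genes, Mcm4, Mcm5 and Plk1. The cell cycle median was 0.09, with 35 of 46 higher, without Combo replicate 1 and TMP195 replicate 3, and 0.02, with 28 higher, when the Ptprc value of each library entered the model as a covariate.

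The E-box to which MYC and MAX bind was looked for in the promoters of the genes. The sequence CACGTG, which is its own reverse complement, was searched from 250 bases before to 50 bases after each start site in the RefSeq promoters of build GRCm38.p6. It occurred in 7.15% of all promoters in that table. Of 9565 tested genes with a promoter there, 1109 (11.6%) held it, and their median difference was 0.0019, against -0.0014 for genes without it. Among the MYC-responsive genes 14 of 52 (26.9%) held it, with a median of 0.07, against 0.10 for those without. Cdk4, which encodes a kinase that starts the cell cycle, is shown as an example that was chosen after its values were seen. Its difference was 0.19 ± 0.18. Capitals mark the E-box, 172 bases before the start at chr10:127063318-127063413 on the plus strand.
Cdk4: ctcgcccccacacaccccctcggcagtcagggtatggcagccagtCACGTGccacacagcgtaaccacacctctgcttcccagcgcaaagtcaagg

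By group mean, hypoxia response genes were lower in Combo almost throughout. Of 25 genes 24 were lower and 1 higher, against 48.9% lower over all genes, with a median of -0.28. There were 5 separated members, all with Combo lower, and 6 had an unadjusted p under 0.05, against 6.36% and 2.74% over all genes. Egln1, the prolyl hydroxylase that marks hypoxia-inducible factor for destruction, had 8.15, 8.35 and 8.18 in Combo libraries, against 8.63, 8.50 and 8.48 in TMP195 libraries (-0.31 ± 0.13). Bnip3, a receptor for the removal of mitochondria, had 8.83, 9.17 and 9.07 in Combo libraries, against 9.50, 9.33 and 9.35 in TMP195 libraries (-0.37 ± 0.16). Pdk1, the kinase that turns off pyruvate dehydrogenase, differed by -0.43 ± 0.18 with overlap, and Hilpda, a lipid droplet protein, by -0.37 ± 0.16 without overlap. Hif1a itself differed by -0.34 ± 0.22, and Combo replicate 3 held the highest value of the 6 libraries. The exception was Car9, a membrane carbonic anhydrase. The list scores, means of gene-centred values, were -0.29, -0.11 and 0.08 in Combo libraries, against 0.29, 0.20 and -0.02 in TMP195 libraries. The groups thus overlapped in this score. Leaving out any 1 library kept the list median between -0.37 and -0.16, and without Combo replicate 1 and TMP195 replicate 3 it was -0.26, with 22 of 25 lower.

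Genes of glycolysis followed a similar course, and 4 of them stand on both lists. Of 21 genes 20 were lower, 7 of them separated, with a median of -0.25, against 48.9% lower and 6.36% separated with Combo lower over all genes. Aldoa, the muscle-type aldolase that most tissues use, had 10.65, 11.11 and 11.10 in Combo libraries, against 11.30, 11.30 and 11.59 in TMP195 libraries (-0.44 ± 0.15). Slc16a3, which exports lactate, had 7.43, 7.87 and 7.41 in Combo libraries, against 8.12, 8.53 and 8.39 in TMP195 libraries (-0.78 ± 0.36). Both were separated. Aldoc, a further aldolase, differed by -0.71 ± 0.26 and Gpi1, glucose-6-phosphate isomerase, by -0.28 ± 0.14. In Combo libraries Aldoc lay between 4.85 and 4.96, close to the floor. The neuronal enolase Eno2 was the 1 gene on the other side. The list scores, means of gene-centred values, were -0.29, -0.14 and 0.04 in Combo libraries, against 0.16, 0.13 and 0.14 in TMP195 libraries. The TMP195 libraries were close together, while Combo libraries spread more widely. The median was -0.13 without Combo replicate 1, -0.40 without Combo replicate 3 and -0.13 without Combo replicate 1 and TMP195 replicate 3 together, and 20 of 21 genes were lower in that last setting.

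The core of the hypoxia response element, ACGTG, was searched on both strands of the same promoters, a search chosen after these values were seen. It is contained in the E-box CACGTG, so both searches overlap. It occurred in 19.6% of all promoters and in 29.2% of the tested genes with a promoter. Among the hypoxia response genes 17 of 21 (81.0%) held it, and among the glycolysis genes 14 of 20 (70.0%). Over all tested genes the median difference was 0.0015 with it and -0.0018 without it. Windows around the motif are shown for the members with values given above, and capitals mark the match on either strand. Mxi1 lies at chr19:53329302-53329396 (plus strand), Bnip3 at chr7:138909565-138909659 (minus strand) and Aldoa at chr7:126799331-126799425 (minus strand), and the match began 66, 108 and 202 bases before the start. In Bnip3 the base after the capitals completes an E-box.
Mxi1: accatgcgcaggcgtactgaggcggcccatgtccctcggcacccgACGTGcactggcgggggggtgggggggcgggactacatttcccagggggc
Bnip3: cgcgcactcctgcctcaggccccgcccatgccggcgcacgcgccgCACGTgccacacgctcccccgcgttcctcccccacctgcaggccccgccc
Aldoa: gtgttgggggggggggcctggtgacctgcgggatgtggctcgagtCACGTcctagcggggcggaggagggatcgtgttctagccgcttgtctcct

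Antioxidant and stress genes were lower in smaller steps. Of 20 antioxidant genes 18 were lower, 5 of them separated, against 48.9% and 6.36% over all genes. The list median was -0.21. Without Combo replicate 1 and TMP195 replicate 3 the median was -0.12, with 14 of 20 lower. Hmox1, which degrades haem, had 10.16, 10.06 and 10.48 in Combo libraries, against 10.87, 10.99 and 10.86 in TMP195 libraries (-0.67 ± 0.27). Gclm, which belongs to the first enzyme of glutathione synthesis, differed by -0.62 ± 0.28, the cystine importer Slc7a11 by -0.97 ± 0.52 and Sod2, the mitochondrial superoxide dismutase, by -0.35 ± 0.16. All 4 genes were separated. Of 18 chaperone and folding genes of the endoplasmic reticulum 17 were lower, with a median of -0.12. Only 1 of the 18 was separated, near the 6.36% over all genes. In the integrated stress response the genes split, with 10 higher and 11 lower of 21 and a median of -0.02. Cebpb and Vldlr were separated with Combo lower, at -0.60 and -0.97. Cebpb encodes a transcription factor of stress and of myeloid cells, and Vldlr a lipoprotein receptor.

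Mitochondrial genes were examined because the series' title concerns mitochondrial function. Nuclear genes of complex I divided into 15 higher and 21 lower of 36, with a median of -0.03, and those of complexes II to V into 13 higher and 27 lower of 40, with a median of -0.06. The median over all genes was 0.0056. Both medians changed sign when Combo replicate 1 and TMP195 replicate 3 were left out, to 0.08 and 0.03. Ndufa1, an accessory subunit of complex I, had 5.01, 5.43 and 5.47 in Combo libraries, against 5.49, 5.90 and 5.70 in TMP195 libraries (-0.39 ± 0.18). Sdhc, the membrane anchor of complex II, had 7.61, 7.63 and 7.65 in Combo libraries, against 7.19, 7.45 and 7.54 in TMP195 libraries (0.24 ± 0.13). Both were separated, in opposite directions. In complex I 2 of 36 genes were separated, both with Combo lower, against 6.36% over all genes. In complexes II to V 2 of 40 were separated, both with Combo higher, against 5.48% over all genes. Both counts were near those shares.

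All 13 protein-coding transcripts of the mitochondrial genome were lower in Combo, with a median of -0.36, but none was separated. The list scores were 0.41, -0.31 and -1.08 in Combo libraries, against -1.10, 0.35 and 0.76 in TMP195 libraries, so each group spanned most of the range. Mt-Rnr2, the large ribosomal RNA of mitochondria, spread likewise, from 21.14 to 22.43 in Combo libraries and from 21.28 to 22.58 in TMP195 libraries. mt-Nd6, a complex I subunit, differed by -0.54 ± 0.53. The median turned to 0.05 without Combo replicate 3 and to 0.04 without TMP195 replicate 3, and it was -0.93 without TMP195 replicate 1.

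The other mitochondrial lists had medians between -0.10 and 0.09. The tricarboxylic acid cycle had 12 higher and 9 lower of 21 (median 0.02), the mitochondrial ribosome 41 and 37 of 78 (median 0.02) and the maintenance and transcription of mitochondrial DNA 11 and 6 of 17 (median 0.09). Tfam, which packages mitochondrial DNA, differed by -0.03, with a 95% interval of -0.44 to 0.37. Mrpl38, of the large mitochondrial ribosomal subunit, had 6.67, 6.93 and 6.33 in Combo libraries, against 6.14, 6.10 and 6.17 in TMP195 libraries (0.51 ± 0.20). It was 1 of 6 members of 78 that were separated with Combo higher, against 5.48% over all genes, and 1 was separated with Combo lower. In mitochondrial dynamics and mitophagy 12 of 16 genes were lower, against 48.9% over all genes, with a median of -0.10. Among the lower genes 4 were separated, against 6.36% over all genes. They included the mitophagy receptors Bnip3 and Bnip3l (-0.30), the autophagy adaptor Sqstm1 (-0.28) and the inner membrane protease Oma1 (-0.50). The mitochondrial unfolded protein response had 7 higher and 6 lower of 13, with a median of 0.03.

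Genes for antigen presentation had lower values in Combo. All 17 were lower, 7 of them separated and 12 with an unadjusted p under 0.05, against 6.36% and 2.74% over all genes, and the median was -0.68. H2-Ab1, a chain of the class II molecule, had 7.01, 8.63 and 8.49 in Combo libraries, against 8.81, 9.28 and 10.40 in TMP195 libraries (-1.45 ± 0.52). B2m, the shared light chain of class I molecules, had 11.12, 11.75 and 11.87 in Combo libraries, against 12.04, 12.09 and 12.66 in TMP195 libraries (-0.68 ± 0.25). Tap2, a subunit of the transporter that feeds peptides to class I molecules, had 7.30, 7.80 and 7.34 in Combo libraries, against 7.99, 8.04 and 8.25 in TMP195 libraries (-0.61 ± 0.20). All 3 were separated, and Combo replicate 1 was the lowest and TMP195 replicate 3 the highest library in each. H2-D1, a class I heavy chain, differed by -0.68 ± 0.24, and reads of histocompatibility genes can be shared between near-identical copies. The median was -0.26, with 15 of 17 lower, without Combo replicate 1 and TMP195 replicate 3. The list scores overlapped, with -0.06 in Combo replicate 2 above -0.10 in TMP195 replicate 1.

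Interferon response genes were lower as well. All 28 were lower in Combo, 6 of them separated and 1 with an unadjusted p under 0.05, with a median of -0.43. Over all genes 48.9% were lower, 6.36% were separated with Combo lower and 2.74% had an unadjusted p under 0.05 with Combo lower, and the 1 of 28 is near that last share. Ifi44, an interferon-induced protein, had 6.61, 6.89 and 6.83 in Combo libraries, against 7.41, 7.47 and 7.58 in TMP195 libraries (-0.71 ± 0.25). Stat2, which carries the type I interferon signal, had 7.18, 7.99 and 7.62 in Combo libraries, against 8.22, 8.19 and 8.22 in TMP195 libraries (-0.62 ± 0.30). Both were separated. The chemokine Cxcl9, induced by interferon gamma, had 6.54, 8.40 and 7.78 in Combo libraries, against 7.86, 8.44 and 10.00 in TMP195 libraries (-1.19 ± 0.59). Cxcl9 overlapped between the groups. The list median was -0.11, with 22 of 28 lower, without Combo replicate 1 and TMP195 replicate 3. The list scores of the groups overlapped narrowly, with -0.265 in Combo replicate 2 and -0.271 in TMP195 replicate 1. Of 23 chemokines and cytokines 21 were lower, 5 of them separated, with a median of -0.45, among them Cxcl5 (-0.75 ± 0.26), which attracts neutrophils, and Cxcl16 (-0.97 ± 0.42), a ligand of T cells. Their median was -0.26 without Combo replicate 1 and TMP195 replicate 3, with 21 of 23 lower.

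The core of the interferon-stimulated response element, GAAA followed by any 2 bases and GAAA, was searched on both strands of the same promoters, again after these values were seen. It occurred in 3.44% of all promoters and in 389 (4.07%) of the tested genes with a promoter. Of those 389 genes 61.2% were lower in Combo, against 49.7% of the genes without it, and the medians were -0.06 and 0.0012. Interferon response genes held it in 13 of 23 (56.5%) and antigen presentation genes in 1 of 12 (8.33%), namely B2m. The windows shown are those of B2m at chr2:122147503-122147602 and of Stat2 at chr10:128270248-128270330, both on the plus strand. The match, in capitals, began 139 and 222 bases before the start, and in Stat2 it stands on the opposite strand.
B2m: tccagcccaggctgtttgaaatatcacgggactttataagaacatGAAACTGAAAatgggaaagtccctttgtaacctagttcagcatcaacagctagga
Stat2: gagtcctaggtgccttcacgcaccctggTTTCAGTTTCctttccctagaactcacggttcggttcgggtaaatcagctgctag

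Markers of immune cells moved with these lists. All 8 leukocyte markers were lower in Combo, 6 of them separated, against 48.9% and 6.36% over all genes. The list median was -0.72. The mean level of the list ran from 8.20 to 8.80 in Combo libraries and from 8.90 to 9.68 in TMP195 libraries. None of its genes was at the floor in all 6 libraries. Laptm5, a lysosomal protein of blood cells, had 8.75, 9.21 and 9.23 in Combo libraries, against 9.63, 9.86 and 10.57 in TMP195 libraries (-0.96 ± 0.33). Ptprc differed by -0.80, with a 95% interval of -1.65 to 0.04. In bulk samples fewer cells of a type and less RNA per cell cannot be told apart.

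Markers of myeloid cells were lower as well. Of 16 macrophage and monocyte markers 15 were lower, 6 of them separated, against 48.9% and 6.36% over all genes. The list median was -0.50, with list levels of 8.36 to 8.71 in Combo libraries and 8.61 to 9.61 in TMP195 libraries. Fcgr3, an immunoglobulin receptor, had 8.99, 9.66 and 9.27 in Combo libraries, against 9.83, 9.99 and 10.81 in TMP195 libraries (-0.90 ± 0.32). Itgam, the integrin CD11b, differed by -0.74 ± 0.30, and both were separated. All 10 tested neutrophil markers were lower, 6 of them separated, with a median of -0.71 and list levels of 7.46 to 7.69 in Combo libraries and 7.99 to 8.47 in TMP195 libraries. S100a9, a calcium-binding alarmin of neutrophils, had 10.96, 11.17 and 10.92 in Combo libraries, against 11.73, 12.15 and 11.60 in TMP195 libraries (-0.81 ± 0.34). Mmp8, neutrophil collagenase, differed by -0.88 ± 0.35 and Il1r2, a decoy receptor for interleukin 1, by -0.95 ± 0.46, both separated. Without Combo replicate 1 and TMP195 replicate 3 the neutrophil median was -0.79, the leukocyte median -0.34 and the macrophage median -0.16. The neutrophil list thus did not lean on that pair, while the macrophage and leukocyte medians were smaller without it.

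Lymphocyte markers stood at lower levels than the leukocyte, macrophage and neutrophil lists. The T cell list level ran from 5.02 to 5.48 in Combo libraries and from 5.32 to 5.88 in TMP195 libraries. For cytotoxic markers it ran from 5.33 to 5.89 and from 5.79 to 6.66. All 12 tested T cell markers were lower, 2 of them separated, against 48.9% and 6.36% over all genes. The list median was -0.35. Cd3e, a chain of the T cell receptor complex, had 5.45, 5.93 and 5.23 in Combo libraries, against 5.92, 6.04 and 6.73 in TMP195 libraries (-0.69 ± 0.32), with overlap. Of 7 cytotoxic markers 6 were lower, with a median of -0.62, and Prf1, the pore-forming protein perforin, differed by -0.82 ± 0.31, while Gzmb, granzyme B, differed by -0.98 ± 0.43. Their medians were -0.16 and -0.11 without Combo replicate 1 and TMP195 replicate 3.

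With the Ptprc value of each library as a covariate, the medians of the immune-linked lists came closer to 0. The antigen presentation median was then -0.23, with 14 of 17 lower, and the interferon response median 0.08, with 10 of 28 lower. The leukocyte, macrophage and neutrophil medians were -0.05, 0.04 and -0.18. For chemokines and cytokines the median was -0.06, with 14 of 23 lower, and for antioxidant genes -0.09, with 14 of 20 lower. The hypoxia response and glycolysis medians were -0.23 and -0.14, with 22 of 25 and 19 of 21 genes lower. Ptprc itself belongs to the leukocyte list and differs between the groups, so this fit also removes part of any difference that goes with group. It also used all 14 libraries, of which MYCi975 replicate 2 had the highest Ptprc value, 12.07. The part of leukocyte content in the antigen presentation and interferon differences was otherwise not tested.

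**Figure D2:**
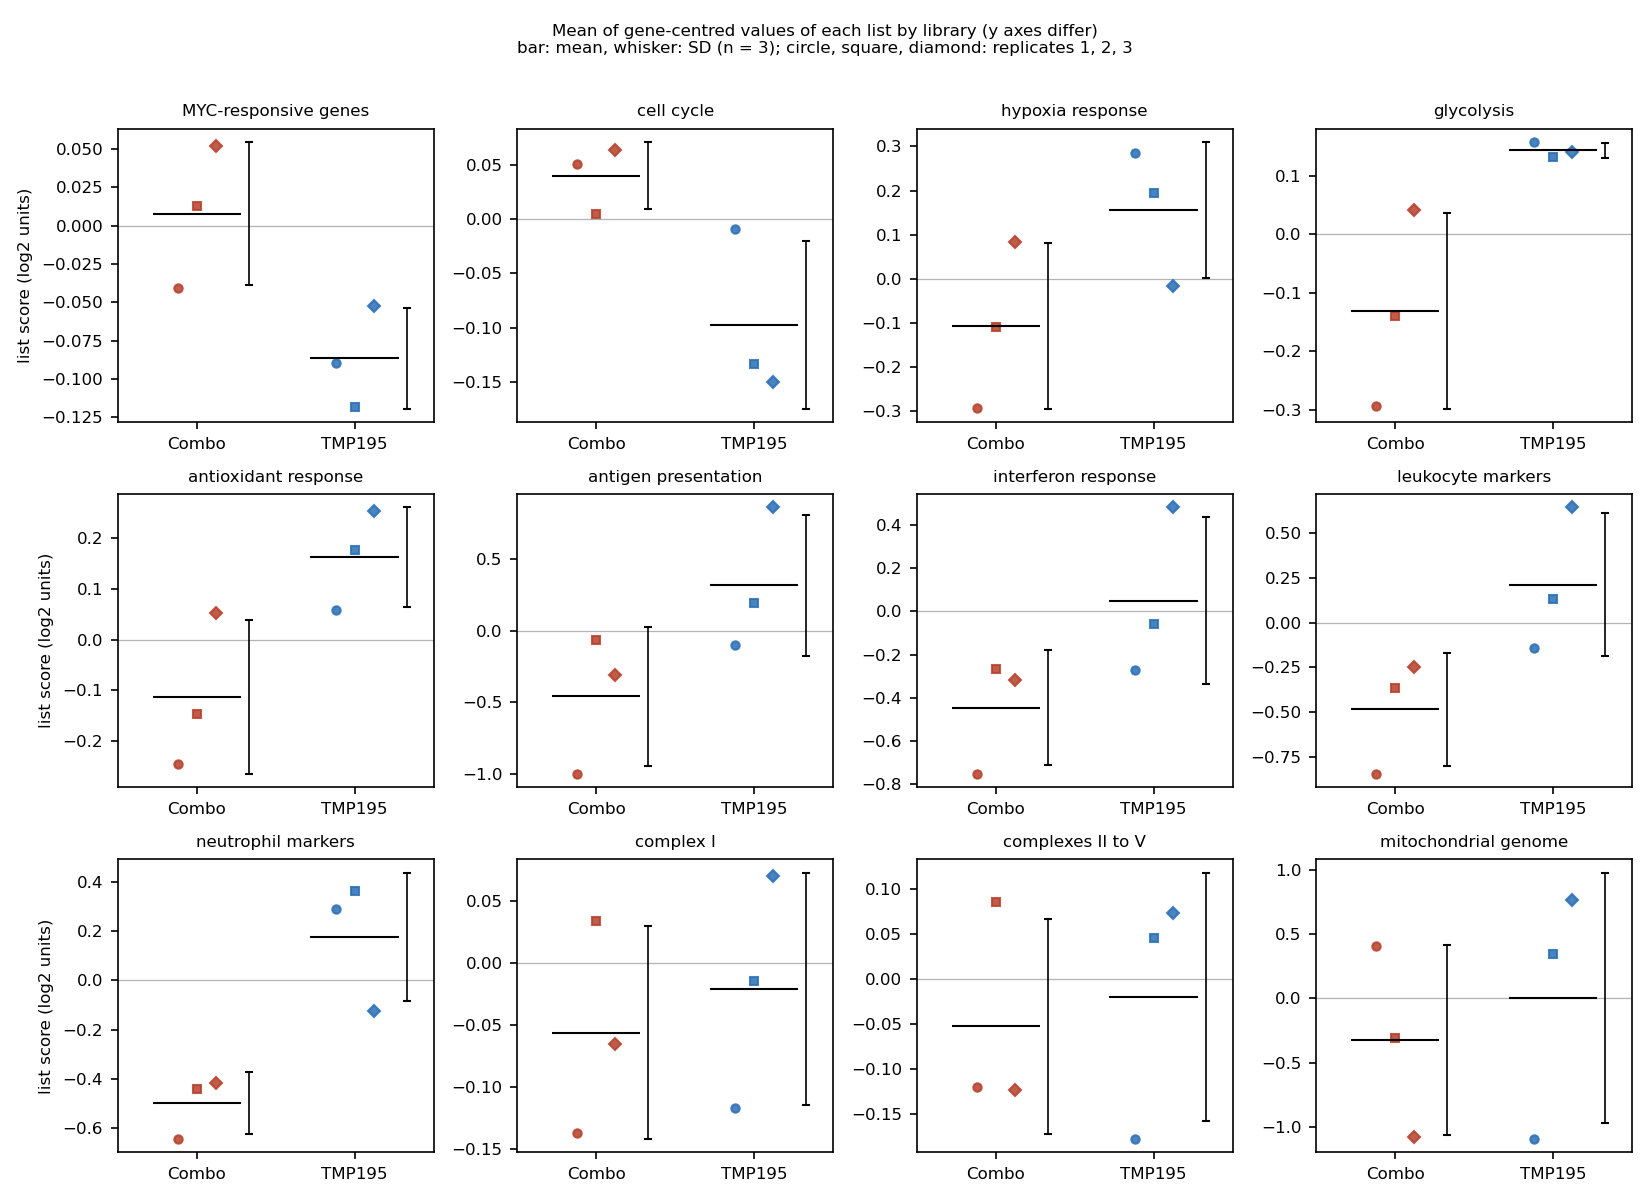
List scores (means of gene-centred values in log2 units, y axes differ) of 12 lists in 3 Combo and 3 TMP195 libraries; points are libraries, bars means and whiskers SD (n = 3 each). Leukocyte, neutrophil, glycolysis and antioxidant scores of all Combo libraries lie below those of all TMP195 libraries, and MYC-responsive and cell cycle scores above them. Scores of hypoxia response, antigen presentation, interferon response, complex I, complexes II to V and the mitochondrial genome overlap.

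Non-immune markers showed no common direction. Of 11 fibroblast and pericyte markers 8 were higher, with a median of 0.13 that was -0.11 without Combo replicate 1 and TMP195 replicate 3. Lum, a matrix proteoglycan, had 10.41, 9.66 and 10.55 in Combo libraries, against 9.52, 9.77 and 8.77 in TMP195 libraries (0.85 ± 0.46), and Fap, a surface protease of activated fibroblasts, differed by 0.49 ± 0.34. Thy1, a surface glycoprotein of fibroblasts and T cells, had 5.71, 6.28 and 5.99 in Combo libraries, against 6.04, 6.50 and 7.20 in TMP195 libraries (-0.59 ± 0.28), with overlap. Endothelial markers had 2 higher and 8 lower of 10, with a median of -0.06 that ran from -0.21 without TMP195 replicate 3 to 0.05 without Combo replicate 3 and was -0.23 without Combo replicate 1 and TMP195 replicate 3. Of these, Erg, an endothelial transcription factor, was separated with Combo lower at -0.51 ± 0.17, and Emcn, the endothelial sialoprotein endomucin, with Combo higher at 0.37 ± 0.24. Erg lay between 4.85 and 5.19 in Combo libraries and Emcn between 4.93 and 5.27 in TMP195 libraries, both close to the floor. Of the 5 tested lung epithelial and carcinoma markers 3 were higher and 2 lower, with a median of 0.05 that was -0.03 with Ptprc as a covariate. Krt18 differed by 0.53 ± 0.23 with separated groups and Krt8 by 0.39 ± 0.20 with overlap, both keratins of epithelial cells, while Cdh1, the epithelial cadherin, differed by -0.11 and Vim, the intermediate filament vimentin, by -0.07. Collagens and matrix genes split into 14 higher and 12 lower of 26, with a median of 0.02 that was -0.15, with 19 lower, when the pair was left out, and Mmp13, a collagenase, differed by -1.21 ± 0.45, while Tnc, the matrix protein tenascin C, differed by 0.74 ± 0.36. Only 3 of 10 skeletal muscle markers were tested, and all 3 were higher with overlap.

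**Figure D3:**
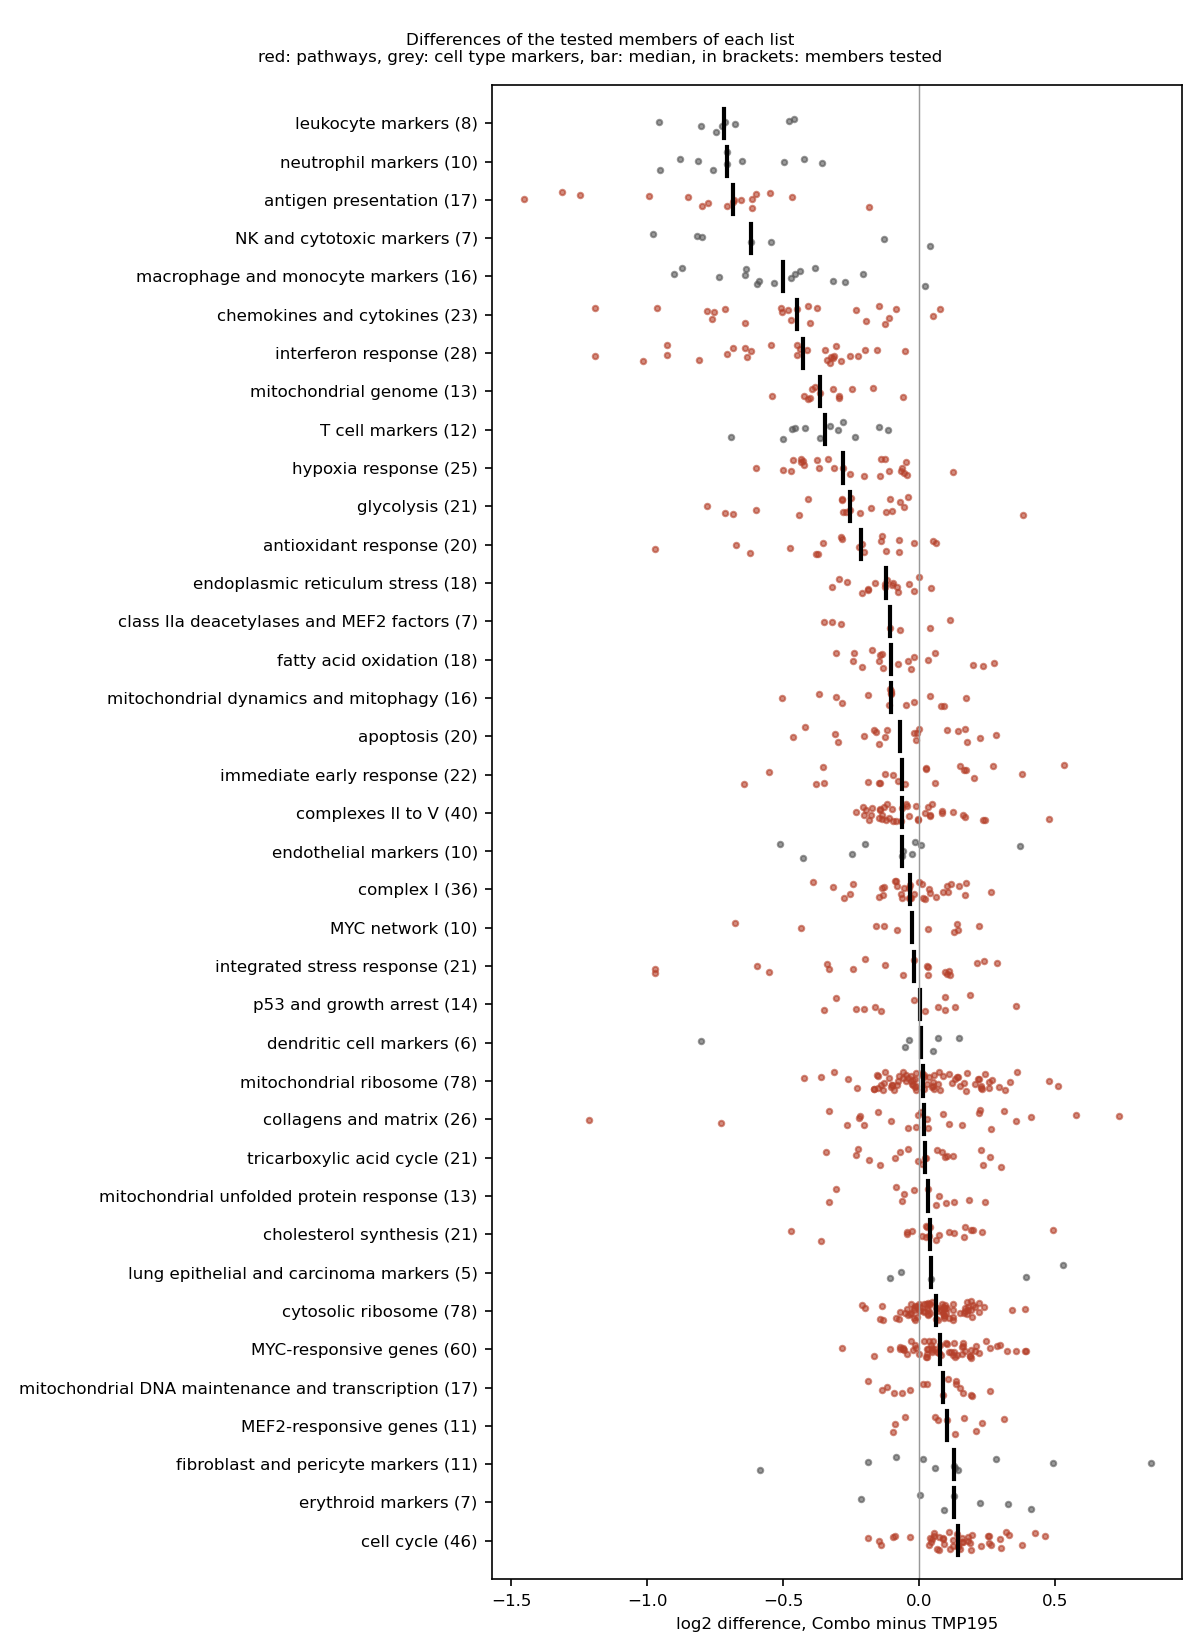
Log2 difference, Combo minus TMP195 (x axis), of every tested member of the lists with at least 5 tested members, sorted by median (black bar). Leukocyte, neutrophil and antigen presentation members lie below 0 without exception, hypoxia and glycolysis members below 0 with 1 exception each, and 40 of 46 cell cycle members above 0.

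The remaining pathway lists had medians between -0.10 and 0.06. Cytosolic ribosomal protein genes had 56 higher and 22 lower of 78, none separated, with a median of 0.06 that ran from -0.15 without Combo replicate 2 to 0.32 without Combo replicate 3, and with Ptprc as a covariate it was -0.19, with 76 of 78 lower. Apoptosis genes had 7 higher and 13 lower of 20 (median -0.07), p53 and growth arrest genes 7 and 7 of 14 (median 0.0039), immediate early genes 10 and 12 of 22 (median -0.06), cholesterol synthesis genes 16 and 5 of 21 (median 0.04) and fatty acid oxidation genes 5 and 13 of 18 (median -0.10). With Ptprc as a covariate the immediate early median was 0.33, with 20 of 22 higher. MYCi975 replicate 2, the library with the highest Ptprc value, held the highest immediate early score of the 14 libraries, 0.97. It also held the lowest cytosolic ribosome score, -0.53, and its part in these covariate medians was not tested. In these lists Bcl2a1b, an anti-apoptotic gene of blood cells, differed by -0.46 ± 0.21, Zmat3, a p53 target, by 0.36 ± 0.18 and Ebp, a sterol isomerase, by -0.47 ± 0.17. Zmat3 and Ebp were separated.

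The same drug was also added without TMP195, which makes a second contrast, MYCi975 minus vehicle, that shares no library with the first. The interaction, Combo minus TMP195 less MYCi975 minus vehicle, tests whether the differences depend on TMP195. No gene passed (0 of 13711, smallest adjusted p of limma 0.911), and 656 genes had an unadjusted p under 0.05, 238 (1.74%) positive and 418 (3.05%) negative. MYCi975 minus vehicle had 0 genes called too. By rule, the 3 genes with the smallest interaction p in each direction were Med24, Zfp169 and Eml2, at 1.27, 1.10 and 1.24, and Mreg, Nsun6 and Narfl, at -0.95, -0.97 and -1.31. Med24 differed by 0.95 in the presence of TMP195 and by -0.33 in its absence. Zfp169, a zinc finger gene, differed by 0.59 in the presence of TMP195 and by -0.51 in its absence.

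Several lists had different medians in both contrasts. The neutrophil median was -0.71 for Combo minus TMP195 and 0.56 for MYCi975 minus vehicle, and all 10 markers were lower in the first contrast and higher in the second. The leukocyte medians were -0.72 and 0.19, the interferon response medians -0.43 and 0.22 and the hypoxia response medians -0.28 and 0.14. For antigen presentation they were -0.68 and -0.07, with 11 of 17 genes lower in MYCi975 against 48.3% lower and 51.7% higher over all genes, for glycolysis -0.25 and -0.02, for cell cycle genes 0.14 and -0.07 and for MYC-responsive genes 0.08 and 0.01. Replicate 2 of MYCi975 stood apart from all other libraries, with a Ptprc value of 12.07. Without it the MYCi975 minus vehicle medians were 0.26 for neutrophil markers, with 9 of 10 higher, -0.13 for leukocyte markers, -0.11 for interferon response genes and 0.14 for hypoxia response genes. The opposite signs of the leukocyte and interferon lists thus rested on that library, and those of the neutrophil and hypoxia lists did not rest on it alone. Neutrophil list scores were 0.60, 1.41, -0.35 and -0.03 in MYCi975 libraries, against 0.10, -0.08, -0.52 and -0.16 in vehicle libraries. Replicates 3 and 4 of MYCi975 thus lay within the vehicle range. The difference between the list medians was not tested, and S100a9, the neutrophil marker shown above, had an interaction of -1.56.

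**Figure D4:**
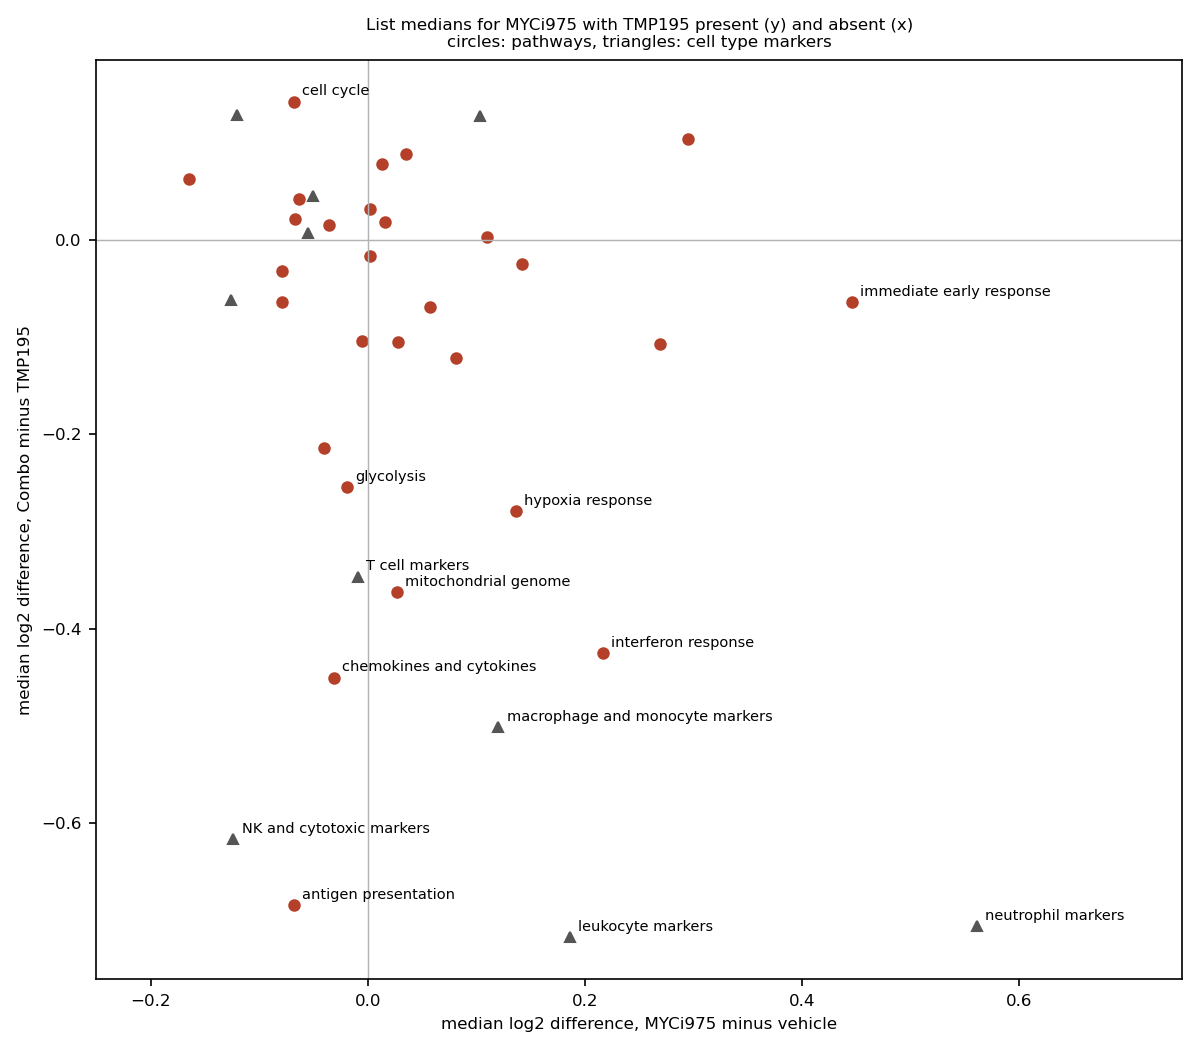
Median log2 difference of each list with at least 5 tested members for Combo minus TMP195 (y axis) and for MYCi975 minus vehicle (x axis), with all 14 libraries; circles are pathways and triangles cell type markers. Neutrophil and leukocyte markers, interferon response and hypoxia response genes lie at the lower right, below 0 on y and above 0 on x, and the x values of leukocyte markers and interferon genes are below 0 without MYCi975 replicate 2.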

How the data were processed

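Expression was measured by RNA sequencing of 14 libraries made with a stranded total RNA kit, per the labels' protocols. The authors deposited 1 table of variance-stabilised values on a log2 scale, with 21152 mouse Ensembl IDs, of which 20264 (95.8%) matched a symbol. The submitters' processing notes name Salmon, without a version, and the human build hg38, so the build of the mouse IDs is unknown. All libraries share the lowest value 4.047. Counts and depth cannot be recovered, no count model was used, and differences of genes near the floor understate the fold.

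Group means of the 14 libraries were estimated together in limma 3.58.1 (R 4.3.3; trended moderation, 10 residual and 5.275 prior degrees of freedom, two-sided tests, Benjamini-Hochberg adjustment over 13711 genes, threshold 0.05). The procedure was also run on simulated data, with planted changes larger than the differences between the 5th and the 95th percentile here. That run therefore does not cover smaller changes. Members and the 44 gene lists (28 pathways, 16 marker lists) were chosen with earlier results of these data known, so lists carry counts and medians and no p. Keratinocyte markers had 0 tested members, adipocyte markers 2. B cell, mast cell, dendritic cell, erythroid and Y-linked lists had medians of -0.24, 0.16, 0.0077, 0.13 and -0.04.

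Genes were named by rule. The rule took the 12 smallest unadjusted p in each direction where fewer than 5 passed, and the 3 smallest interaction p in each direction. It also took up to 4 members of each list by p, and 12 fixed genes. Of the fixed genes Mycn was not analysed here, and Mycl and Ppargc1a lay under the threshold for testing. Some genes the rule took are not reported here. List members given as exceptions, genes shared between lists, Mxd3, Mnt, Mlxip, Vim, the cadherins, mt-Rnr2, Eif2s3y and Cdk4 were named after their values were seen. Alternatives were other filters, moderation, scaling, library weights, covariates, the replicate number as a block, only the 6 libraries, and leaving out each library, with Combo replicate 1 and TMP195 replicate 3 left out together added after seeing the data.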

Additional observations from a re-analysis of the deposited data

How the results depend on the processing

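Under all 27 alternatives for Combo minus TMP195 and all 26 for the interaction, limma called 0 genes. The smallest adjusted p was 0.39 for Combo minus TMP195 and 0.59 for the interaction. The number of genes with an unadjusted p under 0.05, 603 with all libraries, was 253 without Combo replicate 1, 378 without TMP195 replicate 3, 971 without MYCi975 replicate 2 and 899 with only the 6 libraries. The E-box difference of 0.0033 moved by less than the spread between libraries in all 27. With the replicate number as a block there were 0 calls, a smallest adjusted p of 0.963 and 249 higher and 373 lower genes at an unadjusted p under 0.05. Deviations of same-numbered libraries correlated at 0.08, -0.13 and -0.03, so the numbers do not pair the libraries.

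Some genes changed sign in other settings without passing a threshold, and the cause was not tested. With Ptprc as a covariate Hdac7 was at -0.028, and with the muscle score as a covariate Tfam was at 0.032. Without Combo replicate 1 and TMP195 replicate 3 together Eml2, at 0.31 with all libraries, was at -0.037, Hdac7 at -0.044 and Hdac9 at -0.088. Leaving out each library in turn, Myc ran from -0.0040 to 0.089, Hdac7 from -0.0063 to 0.125, Hdac9 from -0.130 to 0.275 and Tfam from -0.088 to 0.031. No alternative took a named gene past adjustment. With 3 libraries a group and unknown depth, small differences are beyond these data.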
